A study of Mus musculus with 6 samples.

Results

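The 10 genes described here encode transcription factors of myeloid fate: PU.1 (Spi1), the C/EBP factors Cebpa, Cebpb, Cebpd, Cebpe and Cebpg, and Gfi1, Irf8, Runx1 and Myb. They were taken by symbol from 21851 genes measured by RNA-seq in hematopoietic stem cells (HSCs) of mouse bone marrow, and all 10 passed the filter on low values. The control group (Ctrl, 3 libraries) came from wild-type mice without irradiation, and the irradiated group (IR, 3 libraries) from wild-type mice exposed to ionizing radiation. The sort kept marrow cells without lineage markers that carried Sca-1, CD150 and c-Kit but lacked CD48 and Flt3, per the series design. The sources used here do not give dose, time after exposure, age, sex or how many mice went into each library. They also do not say whether replicates were separate mice, so p-values cover only the spread among these libraries, which may be technical.

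Myeloid fate is set by a small network of factors that act by dose. PU.1, an ETS factor, opens myeloid and lymphoid genes and is opposed by GATA factors of the erythroid and megakaryocytic branch. C/EBP alpha works with PU.1 at the entry into the granulocyte and monocyte lineage, after which Gfi1 represses monocytic genes on the granulocytic side and Irf8 drives monocytes and dendritic cells. C/EBP factors bind DNA as dimers of basic leucine zipper proteins and can pair with each other. Runx1 and Myb act earlier, in stem and progenitor cells.

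Values are FPKM, in which fragments are scaled by transcript length and by depth, so that levels can be compared between genes. Spacing between low values puts the depth at about 14400000 to 16300000 fragments per library. The sort label was checked against RNA of stem cell genes. Of the gate's positive markers, Kit was at 97.5 ± 1.72 FPKM in controls and 96.7 ± 1.65 FPKM in irradiated HSCs (mean ± SD, n = 3) and was not called. The Sca-1 gene Ly6a fell from 202.8 ± 5.13 to 156.7 ± 5.17 FPKM, and the CD150 gene Slamf1 rose from 3.57 ± 0.409 to 5.06 ± 0.443 FPKM. Procr, a surface marker of HSCs, fell from 19.2 ± 0.494 to 12.6 ± 0.704 FPKM, and Fgd5 was below 1 FPKM in every library. RNA of Flt3, a receptor excluded by the gate, was at 125.4 ± 1.58 FPKM in controls and 65.7 ± 1.43 FPKM in irradiated HSCs, and Mpo, a granule gene of committed myeloid progenitors, was at 2253 ± 9.23 and 2665 ± 7.99 FPKM. High Flt3 and Mpo RNA with low Slamf1 and Fgd5 RNA goes against a pure HSC label, so HSC is used below as the name on the label. Of 13 stem cell markers 3 rose, 5 fell, 3 were not called and 2 were not tested. Hoxb5, among those that rose, passed the filter only through the irradiated libraries. No library stood apart within its group: across genes, Pearson's r was 0.9982 to 0.9985 for libraries of 1 group and 0.9901 to 0.9904 for libraries of different groups.

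Of the 10 factors, 4 rose, 4 fell and 2 were not called in irradiated HSCs (limma on log2(FPKM + 1), Benjamini-Hochberg adjusted p under 0.05 over all 10281 genes tested). Cebpa, Cebpe, Cebpg and Myb rose. Spi1, Cebpb, Cebpd and Irf8 fell, and Gfi1 and Runx1 were not called. Calls were common in these libraries: 54.7% of all genes tested were called, 25.8% as higher and 28.9% as lower. The groups did not overlap in 9 of the 10 factors, against 61.7% of all genes tested. The median log2 fold change was -0.058 over the 10 factors and -0.0072 over all genes tested. In bulk RNA, fewer cells of a type and less RNA per cell cannot be told apart.

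**Figure D1:**
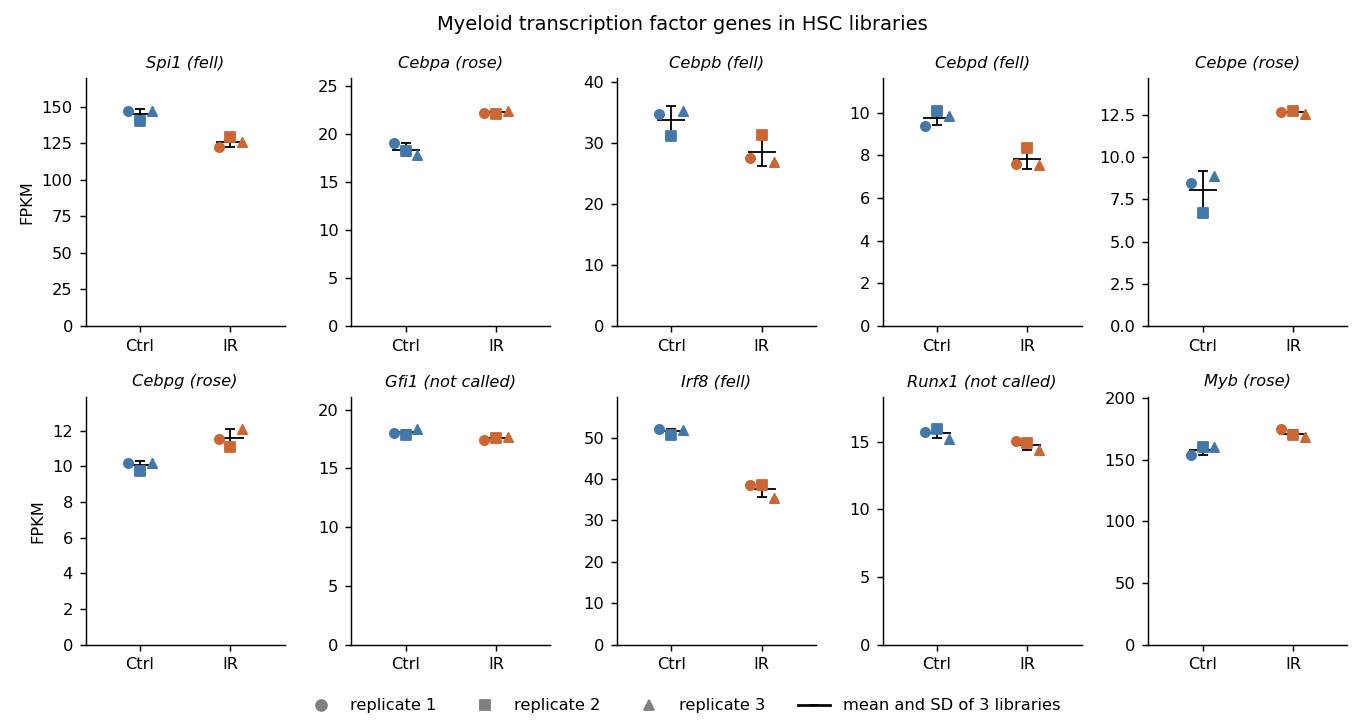
FPKM of each of the 10 factors in the 3 Ctrl and 3 IR libraries, on linear axes that start at 0; points are libraries, marked by replicate, and black lines give the mean and SD. Cebpe shows the largest relative rise and Irf8 the largest relative fall, while Gfi1 and Runx1 have the smallest changes.

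In controls the factors fell into 3 tiers of level. Myb (158 ± 3.83 FPKM) and Spi1 (144.9 ± 3.76 FPKM) were highest, above 93.5% to 94.1% of tested genes. Irf8 (51.5 ± 0.696 FPKM) and Cebpb (33.7 ± 2.23 FPKM) came next. Cebpa, Gfi1, Runx1, Cebpg, Cebpd and Cebpe followed between 18.4 and 8.03 FPKM. Cebpa and Gfi1 overlapped in their control libraries, as did Cebpg and Cebpd, so that neither pair can be ordered. In irradiated HSCs Cebpe, the lowest factor in controls, lay above Cebpg in every library, and Cebpd was the lowest.

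Spi1 lies on chromosome 2 from 91082390 to 91115756 (GRCm38, plus strand; GENCODE M21 lists up to 5 exons in its coding transcripts). Its level was 147.2, 140.5 and 146.8 FPKM in control replicates 1 to 3 and 122.5, 129.0 and 125.5 FPKM in irradiated replicates 1 to 3. Every irradiated library was below every control. The mean fell from 144.9 ± 3.76 to 125.7 ± 3.26 FPKM in irradiated HSCs (limma: log2 fold change -0.20, SE 0.028, adjusted p = 0.000181). A change of at least this size was seen in 33.1% of all tested genes.

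Irf8, the interferon regulatory factor of monocytes and dendritic cells (chromosome 8, 120736358 to 120756694, plus strand), had the largest fall of the 10. It was at 52.0, 50.7 and 51.7 FPKM in the control libraries and at 38.4, 38.6 and 35.4 FPKM in the irradiated libraries. The groups were well separated, with control libraries within a narrow band and irradiated replicate 3 the lowest. The mean fell from 51.5 ± 0.696 to 37.5 ± 1.81 FPKM, 1.37-fold lower (log2 fold change -0.45, SE 0.037, limma adjusted p = 6.5e-06). Only 7.23% of tested genes changed by as much.

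Cebpa encodes C/EBP alpha, which is required to form granulocyte and monocyte progenitors (chromosome 7, 35119293 to 35121928, plus strand). Its level was 19.1, 18.2 and 17.9 FPKM in the control libraries and 22.2, 22.2 and 22.5 FPKM in the irradiated libraries. All irradiated libraries were above all controls and nearly equal to each other. The mean rose 1.21-fold, from 18.4 ± 0.659 to 22.3 ± 0.157 FPKM (limma: log2 fold change 0.26, SE 0.037, adjusted p = 0.000197). Cebpg, its neighbour on chromosome 7 (35046422 to 35056573, minus strand), encodes C/EBP gamma, a short family member that pairs with other C/EBP proteins. The end of Cebpg lies 62719 bp from the start of Cebpa, with no protein-coding gene between them. Cebpg was at 10.2, 9.74 and 10.2 FPKM in controls and at 11.6, 11.1 and 12.1 FPKM in irradiated HSCs. Its groups did not overlap either, and the mean rose from 10.1 ± 0.271 to 11.6 ± 0.51 FPKM (limma: log2 fold change 0.19, SE 0.045, adjusted p = 0.00593). Both genes were higher in irradiated HSCs, and their ratio overlapped between the groups: Cebpa:Cebpg was 1.83 ± 0.0733 in controls and 1.93 ± 0.072 in irradiated HSCs (exact permutation p = 0.3, 2-sided, n = 3 per group; log2 change 0.073).

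Cebpe encodes C/EBP epsilon, a factor of late granulocyte maturation and of secondary granule genes (chromosome 14, 54710360 to 54712174, minus strand, 2 exons). It was at 8.47, 6.70 and 8.91 FPKM in the control libraries and at 12.6, 12.7 and 12.5 FPKM in the irradiated libraries. Control replicate 2 was the lowest and the irradiated libraries were almost identical. The mean rose 1.58-fold from 8.03 ± 1.17 to 12.6 ± 0.0954 FPKM (limma: log2 fold change 0.60, SE 0.08, adjusted p = 0.000143), a size reached by 3.4% of tested genes. With its single annotated transcript of 1241 nt, these values rest on about 136 to 248 fragments per library, a counting error of 6.35% to 8.57%. The spread of the irradiated libraries (0.755% of the mean) was below that error, and that of the controls (14.6%) above it.

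Cebpb and Cebpd encode C/EBP beta and C/EBP delta, factors that respond to cytokines and inflammation. Cebpb (chromosome 2, 167688915 to 167690418, plus strand, 1 exon) was at 34.8, 31.1 and 35.2 FPKM in controls and at 27.5, 31.3 and 26.8 FPKM in irradiated HSCs. It was the only factor whose groups overlapped: irradiated replicate 2 was just above control replicate 2. The mean fell from 33.7 ± 2.23 to 28.5 ± 2.41 FPKM (limma: log2 fold change -0.23, SE 0.061, adjusted p = 0.00847). Cebpd (chromosome 16, 15887286 to 15891031, plus strand) was at 9.37, 10.1 and 9.85 FPKM in controls and at 7.57, 8.35 and 7.55 FPKM in irradiated HSCs. Its irradiated libraries were all below the controls, with replicate 2 again the highest of them, and the mean fell from 9.77 ± 0.368 to 7.82 ± 0.458 FPKM (limma: log2 fold change -0.29, SE 0.051, adjusted p = 0.000949). Genes on the other strand overlap both models. Tmem189, which overlaps Cebpb, had a log2 fold change of -0.10 (adjusted p = 0.0273 by limma), and Spidr, which overlaps Cebpd, one of 0.043 (adjusted p = 0.372 by limma). The library kit keeps strand, but the sources used here do not say whether the counting used it.

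The share of each C/EBP gene in their summed RNA is given as a description, without a test. Summed over the 5 genes, C/EBP RNA was 81.9, 75.9 and 82.0 FPKM in controls and 81.5, 85.6 and 81.5 FPKM in irradiated HSCs. The groups overlapped in this sum. Cebpb made up 42.1 ± 0.984% of it in controls and 34.4 ± 1.90% in irradiated HSCs, and Cebpd 12.2 ± 0.953% and 9.44 ± 0.277%. The share of Cebpa went from 23.1 ± 1.16% to 26.9 ± 0.903%, that of Cebpe from 10 ± 1.05% to 15.3 ± 0.34% and that of Cebpg from 12.6 ± 0.219% to 14.0 ± 0.97%. Within each library Cebpb stayed the most abundant C/EBP. The ratio of Cebpb to Cebpa was 1.82, 1.71 and 1.97 in controls and 1.24, 1.41 and 1.2 in irradiated HSCs, without overlap (log2 change -0.52; exact permutation p = 0.1, the smallest that 3 against 3 libraries allow, adjusted p = 0.133 over 8 ratios).

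**Figure D2:**
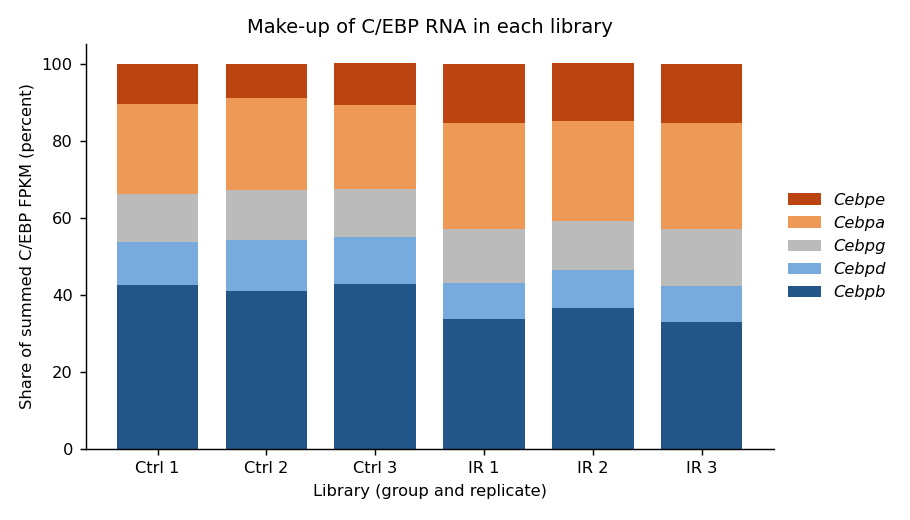
Stacked bars give the share of each C/EBP gene in the summed FPKM of the 5 C/EBP genes (percent, from 0), 1 bar per library. Cebpb and Cebpd take smaller shares and Cebpa and Cebpe larger shares in each of the 3 IR libraries than in each of the 3 Ctrl libraries.

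The stretches just upstream of the start sites are shown because members that rose and that fell can be set side by side. RefSeq (GRCm38.p6) gave a promoter for 7 of the 10 factors. The 250 bases before the start are shown for the neighbours that rose, Cebpa (chr7:35119043-35119292, plus strand) and Cebpg (chr7:35056567-35056816, minus strand), and for a pair that fell, Cebpb (chr2:167688665-167688914, plus strand) and Irf8 (chr8:120736108-120736357, plus strand). Capitals mark a match to one of the searched motifs, on either strand.
Cebpa: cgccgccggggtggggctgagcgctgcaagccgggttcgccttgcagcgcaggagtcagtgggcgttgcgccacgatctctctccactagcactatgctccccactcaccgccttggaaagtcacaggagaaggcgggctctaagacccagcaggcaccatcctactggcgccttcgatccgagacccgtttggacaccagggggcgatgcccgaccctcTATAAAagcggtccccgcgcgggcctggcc
Cebpg: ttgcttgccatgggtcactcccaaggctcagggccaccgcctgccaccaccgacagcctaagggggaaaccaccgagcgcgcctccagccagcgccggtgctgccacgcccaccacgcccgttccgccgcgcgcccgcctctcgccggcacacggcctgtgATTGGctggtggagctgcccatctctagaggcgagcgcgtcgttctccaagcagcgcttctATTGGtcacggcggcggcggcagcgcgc
Cebpb: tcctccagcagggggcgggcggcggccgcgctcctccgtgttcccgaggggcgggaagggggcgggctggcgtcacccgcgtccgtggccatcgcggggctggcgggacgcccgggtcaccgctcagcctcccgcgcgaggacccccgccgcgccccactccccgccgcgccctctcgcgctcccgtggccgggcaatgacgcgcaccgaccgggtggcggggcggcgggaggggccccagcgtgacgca
Irf8: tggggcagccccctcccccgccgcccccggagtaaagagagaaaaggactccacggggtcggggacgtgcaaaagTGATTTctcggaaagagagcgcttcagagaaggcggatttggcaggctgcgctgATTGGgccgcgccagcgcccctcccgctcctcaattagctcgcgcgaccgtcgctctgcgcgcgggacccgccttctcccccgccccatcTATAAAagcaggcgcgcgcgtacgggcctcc
The letters searched were TTGCNNAA for C/EBP, GAGGAA for PU.1, TGTGGT for RUNX, AACNGT for MYB, AAATCA for GFI1, for IRF a pair of GAAA with 2 bases between them, and the core promoter letters TATAAA and also CCAAT, which were added after the sequences were seen. Positions count back from the start site, the base before it being -1. TATAAA stood at -30 to -25 in Cebpa and at -31 to -26 in Irf8, and was found in 12.4% of 32851 promoter windows. CCAAT on the opposite strand (printed as its reverse complement) stood at -89 to -85 and -28 to -24 in Cebpg and at -121 to -117 in Irf8, and 33.8% of windows held CCAAT on either strand. The GFI1 letters lay on the opposite strand at -175 to -170 in Irf8 (12.4% of windows). No C/EBP letters (9.56% of windows), PU.1 letters (23.3%), RUNX letters (14%), MYB letters (22.3%) or IRF letters (2.98%) were in these 4 windows. The windows were rich in G and C, at 66.4% for Cebpa, 70.8% for Cebpg, 81.6% for Cebpb and 67.2% for Irf8, against a median of 52.4% over all windows. In the windows shown, a rising and a falling factor, Cebpa and Irf8, therefore shared the TATAAA letters at nearly the same place. Another start site of Irf8 had the GFI1 letters but no TATAAA in its window. Among the other windows not shown, C/EBP letters were found for Gfi1, and MYB and PU.1 letters for Runx1. A match of letters is a description, not a binding site.

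Myb encodes a factor needed for definitive hematopoiesis and for progenitor proliferation (chromosome 10, 21124935 to 21160984, minus strand). It was at 153.5, 160.2 and 160.1 FPKM in controls and at 174.8, 170.4 and 168.7 FPKM in irradiated HSCs. The rise was without overlap but small, from 158 ± 3.83 to 171.3 ± 3.17 FPKM, 1.08-fold (log2 fold change 0.12, SE 0.025, limma adjusted p = 0.00312), and 55.9% of tested genes changed by as much. Runx1, the DNA-binding subunit of core binding factor (chromosome 16, 92601466 to 92826149, minus strand), was at 15.7, 15.9 and 15.2 FPKM in controls and at 15.0, 14.9 and 14.4 FPKM in irradiated HSCs. All irradiated libraries were below all controls, but the difference did not pass the test (log2 fold change -0.077, SE 0.038, limma adjusted p = 0.113). Its partner subunit Cbfb, named after its values were seen, was at 106 ± 2.90 and 109.6 ± 2.58 FPKM and was not called either. Gfi1, a zinc finger repressor (chromosome 5, 107716657 to 107726036, minus strand), was at 18.0, 17.9 and 18.3 FPKM in controls and at 17.4, 17.6 and 17.7 FPKM in irradiated HSCs. All irradiated libraries were below all controls, but it had the smallest change of the 10 factors and was not called (log2 fold change -0.039, SE 0.034, limma adjusted p = 0.348).

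**Figure D3:**
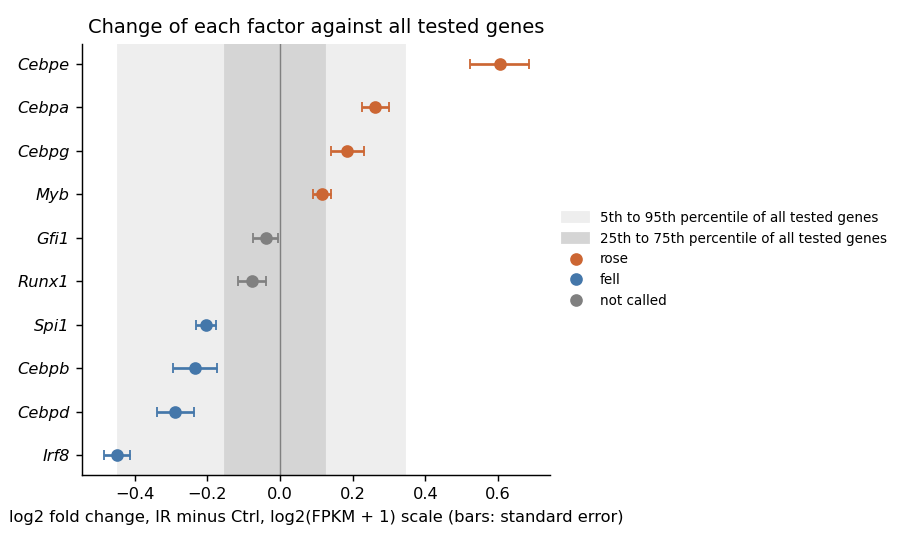
Log2 fold change of each factor, IR minus Ctrl on the log2(FPKM + 1) scale, with its standard error; shaded bands give the middle 50% and the middle 90% of all tested genes. Cebpe lies above and Irf8 just below the wider band, which runs from -0.445 to 0.344, and the other 8 factors lie inside it.

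Ratios between factors known to oppose each other were compared within each library, where library scaling plays no part. The ratio of Spi1 to Gata1, the erythroid and megakaryocytic opponent of PU.1, was 11.6, 10.3 and 12.4 in controls and 5.94, 5.48 and 5.96 in irradiated HSCs. Every irradiated library was far below every control, a log2 change of -0.98, to which the rise of Gata1 (12.7 ± 0.892 to 21.7 ± 1.57 FPKM) added more than the fall of Spi1. Spi1 to Gata2, a factor of stem and mast cells, was 3.26 ± 0.115 in controls and 2.35 ± 0.0642 in irradiated HSCs (log2 change -0.47). The ratio of Cebpa to Gata2 was 0.415 ± 0.0248 in controls and 0.417 ± 0.0201 in irradiated HSCs (log2 change 0.0081, exact permutation p = 0.9, n = 3 per group), and the libraries of both groups overlapped.

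Ratios among the myeloid factors were compared next. The ratio of Cebpa to Spi1 was 0.13, 0.13 and 0.122 in controls and 0.181, 0.172 and 0.179 in irradiated HSCs, a log2 change of 0.48. Irf8 to Gfi1, the monocytic against the granulocytic factor, was 2.89, 2.84 and 2.82 in controls and 2.21, 2.2 and 2 in irradiated HSCs. As Gfi1 itself was not called, this log2 change of -0.42 was close to that of Irf8 itself. The ratio of Gfi1 to its close relative Gfi1b, which acts in erythroid and megakaryocytic cells, was 0.773 ± 0.0534 in controls and 0.506 ± 0.0527 in irradiated HSCs (log2 change -0.62), with Gfi1b rising from 23.4 ± 1.75 to 34.9 ± 3.54 FPKM. In 6 of the 8 ratios the groups did not overlap, each with an exact permutation p = 0.1, the smallest possible here, and adjusted p = 0.133 over the 8 ratios; this exact test could therefore not pass 0.05 for any ratio.

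**Figure D4:**
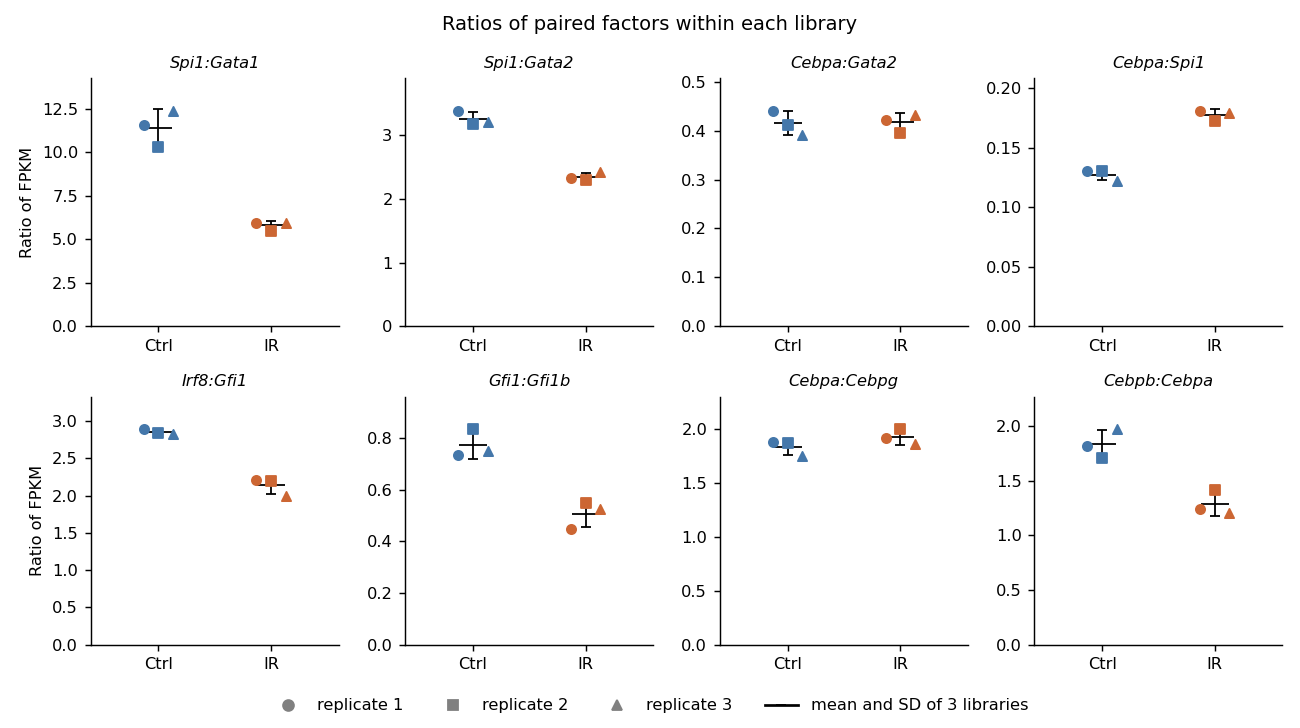
Ratio of FPKM of paired factors in each library, on linear axes from 0; points are the 3 Ctrl and 3 IR libraries, and black lines give the mean and SD. The Spi1:Gata1 ratio goes from 11.5 ± 1.06 to 5.80 ± 0.271, while Cebpa:Gata2 and Cebpa:Cebpg overlap between the groups.

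Relatives and binding partners of the factors changed in both directions. Of 28 listed genes 7 rose, 9 fell, 8 were not called and 4 were not tested (median log2 fold change -0.0069). The AP-1 genes, whose products pair with PU.1 and C/EBP factors, split: Fos fell from 311.2 ± 3.10 to 237.2 ± 2.67 FPKM and Jun rose from 77.3 ± 0.729 to 96.3 ± 4.72 FPKM. Irf1, an interferon regulatory factor like Irf8, fell from 56.8 ± 1.29 to 43.7 ± 0.352 FPKM, and the ETS factor Ets1 from 4.63 ± 0.438 to 2.65 ± 0.152 FPKM. Among 20 regulators and cofactors 5 rose, 5 fell, 7 were not called and 3 were not tested (median 0.065). Trib1, among those that fell, passed the filter only through the controls. Id2 and Id1, inhibitors of E proteins, fell (log2 fold change -0.54 and -0.46). Kdm1a, the histone demethylase that Gfi1 recruits, rose from 30.3 ± 0.423 to 36.0 ± 0.455 FPKM, Hdac2 rose by 0.15 on the log2 scale, and Rfwd2, the ubiquitin ligase COP1 that degrades C/EBP alpha together with Tribbles proteins, rose by 0.33.

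Other transcription factors of stem and progenitor cells were also split, with 7 of 23 higher, 8 lower and 8 not called (median -0.0056). Myc, which C/EBP alpha can repress, rose from 237.2 ± 1.86 to 342.5 ± 4.10 FPKM, and Klf1, the erythroid Kruppel-like factor, from 4.73 ± 1.19 to 10.4 ± 1.16 FPKM. Tcf4, the E protein of plasmacytoid dendritic cells, fell from 7.93 ± 0.0387 to 4.96 ± 0.0662 FPKM, and Lmo2 from 311.9 ± 4.16 to 277.9 ± 6.11 FPKM. Of 14 monocyte and dendritic factors 2 rose, 4 fell, 2 were not called and 6 were below the filter and not tested (median of those tested -0.13). The NF-kB subunits Relb and Rel fell (log2 fold change -0.80 and -0.38), Egr1 fell by 0.25, and Zeb2 and Nr4a1 rose by 0.22 and 0.34. Over the 81 other tested factors and cofactors and all 6 libraries, the centred profiles closest to Spi1 were those of Batf, Lyl1 and Hoxa9, at root mean square differences of 0.029, 0.039 and 0.045 on the log2(FPKM + 1) scale. Those closest to Cebpa were Kdm1a, Tal1 and Tle1, at 0.026, 0.037 and 0.046. With only 2 groups, this closeness largely restates a similar log2 fold change. Batf, Lyl1 and Hoxa9 had -0.21, -0.16 and -0.23 beside -0.20 for Spi1. Kdm1a, Tal1 and Tle1 each had 0.24 beside 0.26 for Cebpa. Shared regulation was not tested.

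Genes that these factors are known to drive were counted by lineage, and no test compared the lists. Of 22 granulocytic target genes 11 rose, 7 fell, 3 were not called and 1 was not tested (median 0.091); the list holds Cebpe itself. Ms4a3, a marker of granulocyte and monocyte progenitors, rose from 218.6 ± 3.70 to 293.8 ± 2.79 FPKM. The primary granule genes Mpo and Elane rose by 0.24 and 0.38 on the log2 scale, and Nkg7 by 0.28. Ngp, a secondary granule gene, fell from 9.21 ± 0.944 to 2.96 ± 0.157 FPKM while Cebpe rose. Other secondary granule genes, named after their values were seen, were split: Camp and Ltf fell (log2 fold change -0.98 and -0.56), while Lcn2, an iron-siderophore carrier, rose from 13.2 ± 1.11 to 22.8 ± 1.24 FPKM. Markers of mature neutrophils, a list that also holds Ngp, Camp and Ltf, moved as well: 7 of 8 tested of 12 fell, and their summed level was 152 to 157 FPKM in controls and 92.6 to 95.8 FPKM in irradiated HSCs, led by S100a8 (85.6 ± 1.42 and 61.7 ± 4.45 FPKM) and S100a9 (24.3 ± 0.946 and 11.9 ± 3.18 FPKM). Ltf and Retnlg passed the filter only through the controls, so their direction was set in advance. Ly6g, the defining marker, was below 1 FPKM in every library. The part of mature neutrophils in the result was not tested.

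Of 29 monocytic target genes 17 fell, 11 were not called and 1 was not tested, while 0 rose by limma's adjusted p and 1 at an unadjusted p under 0.05 (median -0.22). Csf1r, the M-CSF receptor gene that PU.1 and Runx1 bind, fell from 22.1 ± 0.356 to 14.7 ± 0.513 FPKM. The integrin gene Itgam, a PU.1 target, fell from 13.6 ± 0.154 to 6.77 ± 0.394 FPKM, Ctss, a lysosomal protease, from 92.2 ± 0.661 to 50.6 ± 2.06 FPKM and the Fc receptor subunit Fcer1g from 134.7 ± 5.45 to 82.8 ± 0.849 FPKM. Cd53 and Emb, membrane proteins of leukocytes, had log2 fold changes of -0.49 and -0.43. Of 12 markers of mature monocytes and macrophages 8 were tested, and 5 of them fell, with Adgre1 passing the filter only through the controls. Their summed level was 228.3 to 235.6 FPKM in controls and 218.6 to 231.3 FPKM in irradiated HSCs, ranges that overlap, with Marco at 0 in every library; the most abundant, Ly6c2 (146.6 ± 3 and 154.3 ± 5.82 FPKM) and Cd68 (47.2 ± 3.05 and 44.4 ± 2.62 FPKM), were not called. Of 10 dendritic cell markers 3 of 5 tested fell, 2 were not called and 5 were below 1 FPKM in every library. Flt3, also on the early lymphoid list, fell from 125.4 ± 1.58 to 65.7 ± 1.43 FPKM. Itgax (1.58 ± 0.184 to 0.694 ± 0.18 FPKM) and Siglech (1.35 ± 0.111 to 0.436 ± 0.065 FPKM) fell at low levels and were named after their values were seen. Both passed the filter only through the controls, so their direction was set in advance. Bst2 (109 ± 2.10 and 104.9 ± 2.97 FPKM) was not called. The sum was 292.7 to 305 FPKM in controls and 227.2 to 236.3 FPKM in irradiated HSCs, and Flt3 made up most of its fall. The part of such cells in these results was not tested.

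Genes under Gfi1 and Myb were counted in the same way. Of 16 genes that Gfi1 is known to repress 3 rose, 9 fell, 3 were not called and 1 was not tested (median -0.25), while Gfi1 was not called; Irf8, Cebpe and Gfi1 are on this list. Csf1r, Irf8, Id2 and Ets1 are described above, and Socs3, a feedback inhibitor of cytokine signalling, fell from 31.7 ± 0.811 to 23.8 ± 0.62 FPKM. Csf1, also on this list, fell but passed the filter only through the controls. Of 15 targets of Myb 5 rose, 6 fell, 3 were not called and 1 was not tested (median -0.026). Myc, Mpo and Elane rose, as did Hspa8, a heat-shock chaperone (1120.0 ± 18.2 to 1785 ± 27.6 FPKM), while Cd34, a sialomucin of stem and progenitor cells, fell from 642.4 ± 6.12 to 550.5 ± 9.27 FPKM. Over all 8 lists without the 10 factors, 33 of 130 tested genes rose and 56 fell, so that 68.5% were called against 54.7% of all genes. The lists were chosen with earlier results of these data known, so no result about the network is drawn from this difference.

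**Figure D5:**
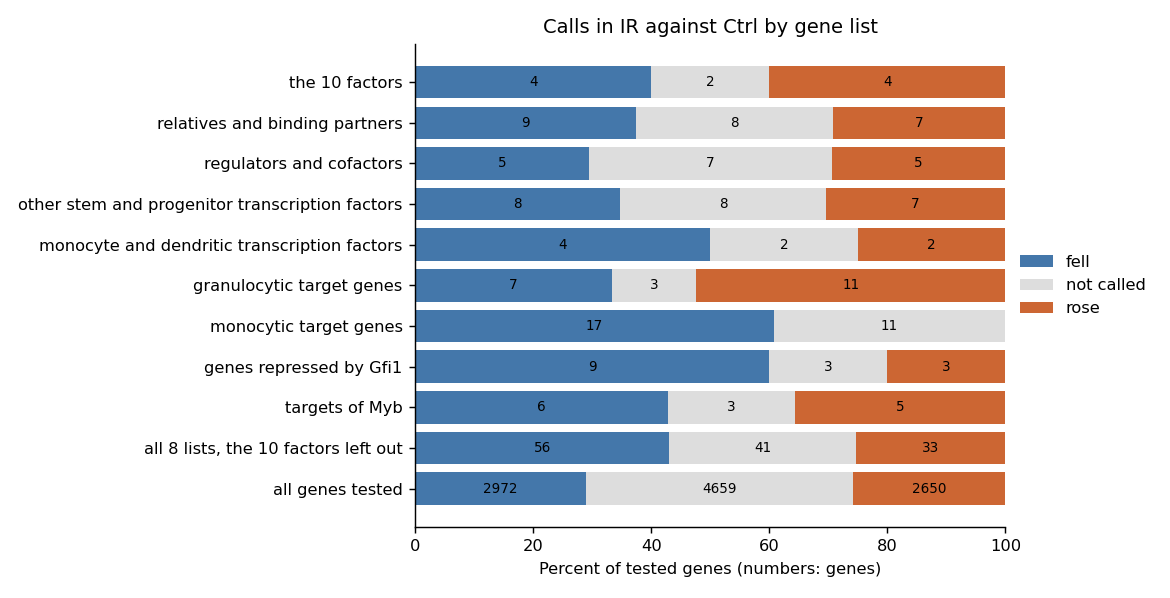
Bars give, for each gene list, the percent of tested genes that fell, were not called or rose in IR against Ctrl, with the number of genes in each part; the bottom bar is all 10281 genes tested. The granulocytic targets have 11 rising and 7 falling genes, and the monocytic targets 17 falling and 0 rising genes.

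Markers of other lineages moved as well. Early lymphoid markers fell in all 7 of the 10 that were tested, and their summed level was 886.9 to 894.8 FPKM in controls and 418.8 to 436.4 FPKM in irradiated HSCs, led by Dntt (429.9 ± 6.62 and 176.5 ± 2.97 FPKM) and Cd52 (297.9 ± 6.69 and 173.2 ± 6.94 FPKM). Of these 7, Il7r and Rag2 passed the filter only through the controls, so their direction was set in advance. Erythroid markers rose in 7 and fell in 3 of the 10 tested of 12; their sum was 532.2 to 536.9 FPKM and 546.0 to 553.1 FPKM, with Car2 at 455 ± 1.70 and 435.2 ± 6.53 FPKM and Car1 at 19.9 ± 0.647 and 48.0 ± 2.93 FPKM. Besides Car2, the erythroid markers that fell were the globin genes Hba-a1 (17.8 ± 2.99 to 12.4 ± 2.02 FPKM) and Hbb-bs (13.25 ± 0.707 to 5.94 ± 0.627 FPKM). These globin genes were named after their values were seen. Ermap, among those that rose, passed the filter only through the irradiated libraries. Megakaryocyte markers rose in 7 and fell in 1 of the 9 tested of 12 (sum 195.3 to 200.8 and 257.8 to 272.2 FPKM), Itga2b rising from 46.4 ± 0.59 to 72.4 ± 0.668 FPKM. Mast cell, basophil and eosinophil markers rose in 4 and fell in 4 of 9 tested of 12 (sum 364.8 to 367.4 and 370.1 to 376.1 FPKM), with Mcpt8 at 80.8 ± 2.53 and 88.5 ± 1.32 FPKM and Cpa3 at 74.9 ± 0.245 and 92.0 ± 2.9 FPKM. Prg2, the eosinophil granule protein gene, was the highest of that list in controls and fell from 87.4 ± 2.73 to 40.0 ± 2.08 FPKM. Fcer1a, on the same list, rose from 32.6 ± 0.503 to 79.6 ± 0.33 FPKM. Both Prg2 and Fcer1a were named after their values were seen. Markers of mature B, T and NK cells were tested in 5 of 12, of which 2 rose and 3 fell. The other 7 were below 1 FPKM in every library, with Cd3g at 0 in each. Nkg7, also counted as a granulocytic target, and Cd79b were the most abundant. Cd4, which fell, passed the filter only through the controls. Endothelial and stromal markers fell in all 7 tested of 12 (sum 231.4 to 236.4 and 164.0 to 170.3 FPKM). Egfl7 (159.1 ± 1.73 and 108.6 ± 1.97 FPKM) and Pecam1 (43.1 ± 0.239 and 35.2 ± 1.63 FPKM) made up most of that sum. Cldn5 passed the filter only through the controls, so its direction was set in advance. The untested genes of that list, Cdh5, Kdr, Lepr, Col1a1 and Col1a2, were below 1 FPKM in every library. These were named after their values were seen. The part of these lineages in the changes of the 10 factors was not tested.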

How the data were processed

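Sorted HSCs gave RNA by a column kit for few cells, and libraries were strand-specific and of mRNA, per the labels' protocols. The values deposited by the authors are FPKM, made with fastp, HISAT2 and StringTie on GRCm38 (mm10), per the submitters' processing notes; the sources used here give no versions, annotation or settings, and the unit was inferred from the values. Entries with a date in place of a symbol (27 of 21878) were left out. The filter kept genes reaching 1 FPKM in 3 or more libraries, and log2(FPKM + 1) was fitted with limma 3.58.1 in R 4.3.3 (empirical Bayes with trend, 2-sided, Benjamini-Hochberg, threshold 0.05, no replicate block); the script was tested on simulated data. Fold changes on this scale understate those of low genes; ratios of means are of FPKM. Depth came from whole steps among low values of genes with 1 transcript, 107 to 111 of 600 per library, too few to recover reads. Fragment numbers and intervals cover counting error only. A gene that reached 1 FPKM in a single group only could be tested only as higher in that group, so its direction was set in advance. Genes said to have passed the filter in that way were named after their values were seen. The factors and lists were chosen with earlier results of these data known. Named genes are the 10 factors, the genes of the ratios, the 5 smallest p of each network or target list, the 2 most abundant of each marker list and the 3 closest profiles of Spi1 and Cebpa; others are said to be named after their values were seen, overlap a factor, or check the sort. A marker gene that the rule names is not reported here. Alternatives changed the pseudocount, filter, scaling, trend, block and library set.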

Additional observations from a re-analysis of the deposited data

How the results depend on the processing

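The calls of the 10 factors were the same in each of 14 alternatives: pseudocounts of 0.1 and 5 FPKM, no filter or a filter of 5 FPKM, 2 rescalings, a replicate block, no trend, and leaving out each library. The log2 fold change of Cebpb, the least stable call, ran from -0.30 without irradiated replicate 2 to -0.19 without irradiated replicate 3 (limma adjusted p 0.00129 to 0.0358), that of Irf8 from -0.47 to -0.41 and that of Cebpe from 0.44 to 0.68. Gfi1 and Runx1 were called in 0 of the 14, with adjusted p from 0.268 to 0.574 and from 0.0936 to 0.283 by limma. The log2 change of Cebpa:Gata2, 0.0081 with all libraries, ran from -0.033 to 0.053 when 1 library was left out and was below 0 without control replicate 3 (-0.033), irradiated replicate 1 (-0.0027) or irradiated replicate 3 (-0.020); the cause was not tested. Same-numbered libraries did not deviate together (correlations 0.0085, -0.031 and -0.049), so the numbers were not taken as a pairing. With the replicate block 2539 genes rose and 2840 fell, 4 factors rose and 4 fell, and no factor changed its call. Of the monocytic targets 1 gene, Ly6c2, was called as higher after rescaling by the median ratio (log2 fold change 0.088) or without irradiated replicate 2 (0.10). Where a factor has several annotated transcripts, its fragment number and counting error depend on which of them is taken; over the annotated coding transcripts the counting error reached 12% for Runx1, 8.64% for Cebpg and 8.57% for Cebpe.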

Other observations

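The genes of this paragraph were named after their values were seen. The corepressors that Gfi1 brings to DNA did not move together: Kdm1a and Hdac2 rose, Hdac1 fell from 185.4 ± 3.39 to 174 ± 0.8 FPKM (limma adjusted p = 0.0052) and Rcor1 was not called (log2 fold change 0.074). The Tribbles genes encode pseudokinases, of which Trib1 is known to bind C/EBP alpha and the ligase COP1. Trib1 fell from 1.49 ± 0.204 to 0.814 ± 0.0374 FPKM and Trib3 from 3.68 ± 0.413 to 2.30 ± 0.564 FPKM. Trib1 passed the filter only through the controls, so its direction was set in advance. Trib2 did not pass the filter and was not tested (0.627 ± 0.035 FPKM in controls and 0.818 ± 0.206 FPKM in irradiated HSCs, groups overlapping). Rfwd2, which encodes COP1, rose from 5.48 ± 0.223 to 7.16 ± 0.277 FPKM. Among receptors that C/EBP and PU.1 factors drive, Csf3r, the granulocyte colony-stimulating factor receptor, rose from 38.3 ± 0.167 to 45.6 ± 0.924 FPKM while Csf1r fell, and Csf2ra (log2 fold change -0.025) and Csf2rb (-0.078) were not called.

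The genes that follow were also named after their values were seen. Of the granulocytic targets, Mgst1, a microsomal glutathione transferase, fell from 42.5 ± 2.75 to 24.6 ± 1.86 FPKM. Among relatives of the factors, Mybl2, a relative of Myb, rose by 0.24 on the log2 scale. Irf5 and Irf2, relatives of Irf8, had log2 fold changes of -0.27 and -0.24, and Spic, a relative of Spi1, had one of -0.73.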
